A study of Mus musculus with 3 samples.

Results

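Voltage-gated sodium and calcium channel genes were taken as every gene whose symbol starts with Scn and a digit, or with Cacna, Cacnb or Cacng. The rule uses names and no measured value. It found 40 of the 32285 genes in the count matrices: 10 sodium channel alpha subunit genes, 4 sodium channel beta subunit genes, 10 pore-forming calcium channel genes (Cacna1), 4 Cacna2d genes, 4 Cacnb genes and 8 Cacng genes. Of these, 33 had at least 20 counts in every library.

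Single-nucleus RNA sequencing had been performed on the prefrontal cortex (PFC) of male mice aged 6 to 8 weeks, with 1 droplet library from pooled tissue per group. The groups were C57BL/6J (wild type, 5 mice pooled), Nav1 KO (a CRISPR deletion within exon 1 of Nav1 on the C57BL/6J background, 4 mice pooled) and BTBR (the inbred strain BTBR T+ Itpr3tf/J, number of mice not given in the sources used here). Nav1 is here neuron navigator 1, a regulator of axon and dendrite growth, and not a sodium channel. Nuclei had been sorted on Hoechst and on NeuN, a neuronal nuclear protein, and both NeuN-positive and NeuN-negative nuclei were collected, although the labels call the cells neurons.

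Neurons fire because voltage-gated sodium channels open when the membrane depolarises, carry the upstroke of the action potential and then inactivate within the spike. Voltage-gated calcium channels turn that depolarisation into calcium entry, which releases transmitter at terminals, shapes bursts in dendrites and signals to the nucleus. Each channel is a large pore protein (Scn alpha, Cacna1) with auxiliary subunits: the membrane-anchored Scn beta subunits, the cytoplasmic Cacnb subunits, and the extracellular Cacna2d subunits that raise the number of calcium channels at the surface. The Cacng family was named after a muscle calcium channel subunit, but most of its brain members bind AMPA-type glutamate receptors.

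The 3 libraries held 15402 (C57BL/6J), 15238 (BTBR) and 14623 (Nav1 KO) barcodes, and 14630, 14777 and 14056 nuclei passed the filters of at least 200 genes and under 10% mitochondrial counts. Total counts ran from 38704723 to 50965774 per library, and the median nucleus held 2074, 2510 and 2754 counts in the order C57BL/6J, BTBR, Nav1 KO, which is the order of every series of 3 values below. Between 55 and 66 barcodes were shared by any pair of libraries. Nuclei were clustered without the 40 channel genes and 19 classes were named from marker lists, with a limit on doublet scores. These classes leave 28.0%, 27.7% and 18% of nuclei unnamed. Besides cortical neurons and glia, the named classes included nuclei with markers of striatal medium spiny neurons, olfactory bulb neurons and ensheathing glia, so the tissue label holds only in part. Layer 2/3-like and middle layer-like nuclei of BTBR came mostly from clusters of their own, one of them led by immediate early genes. Nav1 itself was at 345.0, 145.8 and 264.3 CPM (counts scaled to the same library total). The 3′ counts do not read the deleted part of exon 1, so they check nothing about the deletion, and Nnt, a gene disrupted in C57BL/6J mice, was at 20.18, 13.47 and 15.05 CPM.

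Levels below are CPM, the counts of a gene summed over the nuclei of a class divided by all counts of those nuclei. They compare a gene across classes and libraries and not with another gene, because gene length and capture differ. Classes were compared over the 3 libraries with edgeR on the summed counts, with library as a block, and p-values were adjusted over all genes tested. A contrast is not a test of 3 against 3 sums alone. All classes were fitted together, as 39 sums of 13 broad classes or 57 sums of 19 fine classes (24 and 36 residual degrees of freedom). The spread of a gene is thus estimated from all classes, glia included. A signed value in parentheses after the levels is the log2 fold change of the first class named over the other. Its standard error (SE) and edgeR adjusted p follow where printed, and members called higher or lower passed 0.05. The SE was derived from the log2 fold change and the test statistic. Droplet libraries hold free RNA, and the level of excitatory marker genes outside excitatory-like nuclei was used as its measure. Summed, these genes reached 0.35 to 0.36 of their excitatory-like level in interneuron-like, 0.17 to 0.23 in astrocyte-like and 0.35 to 0.57 in oligodendrocyte precursor-like nuclei. They reached 0.54 to 0.56 in microglia-like and 0.48 to 0.59 in oligodendrocyte-like nuclei. The measure does not separate free RNA from doublets, mixed clusters or expression in the class itself, so "free RNA" below can include these.

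Across the 19 classes the channel genes were mostly neuronal but were not uniform. Astrocyte-like nuclei had the lowest mean level of 21 of the 33 genes. Medium spiny neuron-like nuclei had the highest mean level of 7, and Pvalb-like and olfactory bulb interneuron-like nuclei of 5 each. The same highest class in all 3 libraries was found for 20 of the 33. How often a class is highest or lowest over all genes was not computed, so these counts are descriptions. Astrocyte-like nuclei also held the least free excitatory RNA. Members were also set against the free excitatory RNA, as the number whose level relative to excitatory-like nuclei was above that of every excitatory marker gene in all 3 libraries. In interneuron-like nuclei 31 of 33 were, in oligodendrocyte-like and microglia-like nuclei 10 each, and in astrocyte-like nuclei 9. Ensheathing glia-like nuclei had 7, meningeal fibroblast-like nuclei 6, oligodendrocyte precursor-like nuclei 3 (Cacna2d2, Cacng4 and Cacng5) and endothelial-like nuclei 2. The share of all genes that would pass was not computed, so these counts show nothing particular to the channel genes. The bar also differed, because it was the highest marker gene of each class and library. It ran from 0.317 to 0.525 in astrocyte-like and from 0.5529 to 1.142 in precursor-like nuclei, so the counts cannot be compared between classes. The measure covers free RNA of excitatory neurons only. Cacna2d2, Cacng4 and Cacng5 were higher in interneuron-like, medium spiny neuron-like and mitral or tufted-like than in excitatory-like nuclei. For them it cannot tell expression in glia from free RNA of those neurons.

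**Figure D1:**
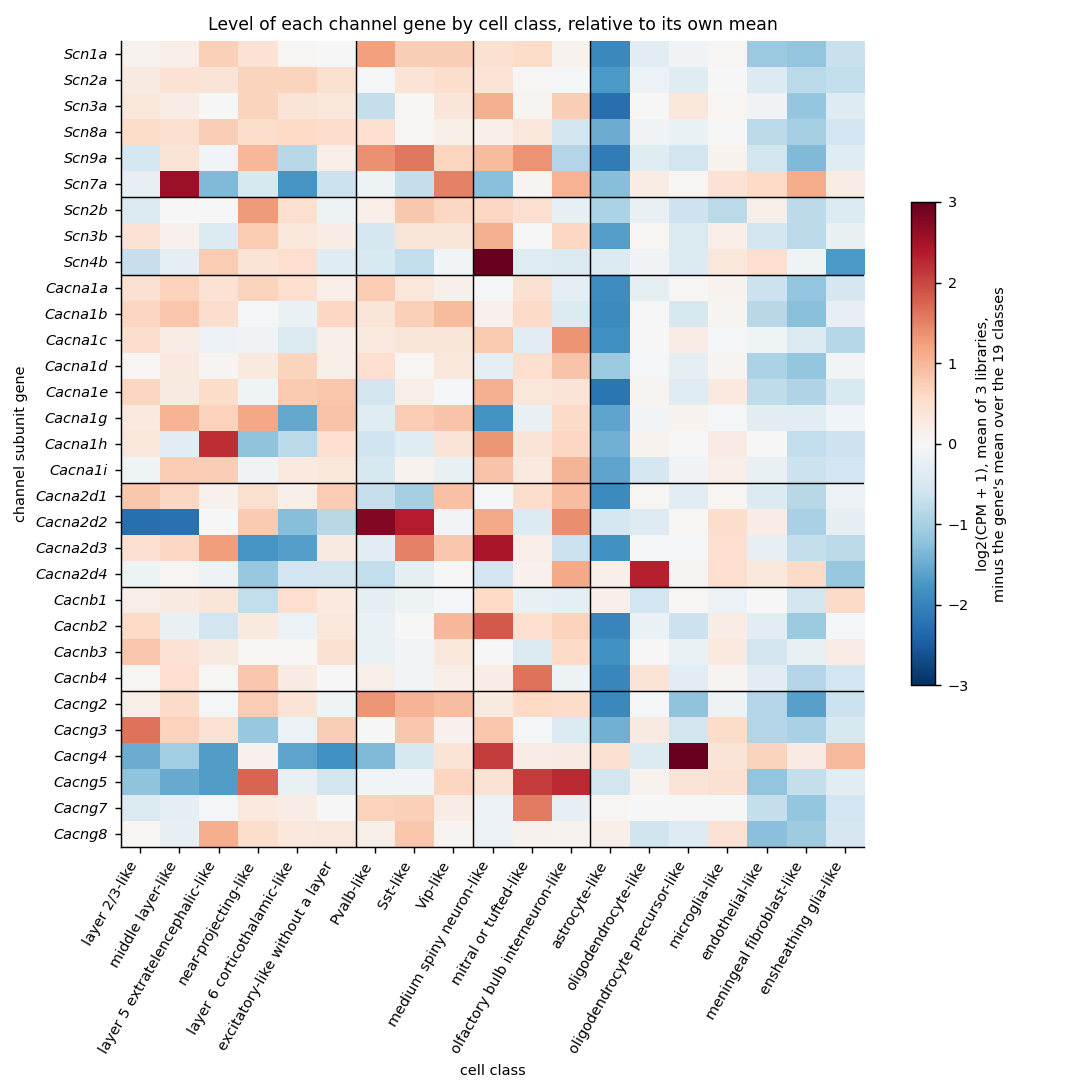
Heat map of 31 of the 33 channel genes with at least 20 counts in every library (rows, grouped by subunit family) over 19 cell classes (columns). Colour is the mean over 3 libraries of log2(CPM + 1) minus the gene's own mean over classes, so red is high for that gene; Cacng4 in oligodendrocyte precursor-like, Scn4b in medium spiny neuron-like and Cacna2d2 in Pvalb-like nuclei stand out, and the astrocyte-like column is blue for most rows.

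The sodium channel alpha genes are close relatives, and 5 of them lie in a row on chromosome 2 (mm10): Scn3a (chr2:65457118-65567627), Scn2a (chr2:65620771-65767447), Scn1a (chr2:66270778-66440840), Scn9a (chr2:66480080-66634962) and Scn7a (chr2:66673425-66784914). Scn8a lies on chromosome 15 (chr15:100869858-101045938). Exact runs shared by pairs of Scn1a, Scn2a, Scn3a, Scn8a and Scn9a reached 188 bases in the coding sequence (Scn1a with Scn2a), but at most 12 bases in the last 600 bases of the transcripts. Droplet reads start near the 3′ end, so reads there can be assigned to 1 gene. How reads inside introns or coding exons were assigned is not given in the sources used here.

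In cortical interneuron-like nuclei (661 to 1118 per library) against cortical excitatory-like nuclei (4518 to 5575), the largest difference was Cacna2d2, a calcium channel subunit that binds gabapentin, followed by Cacng5, Scn9a and Cacng4. Scn1a, the sodium channel on which fast-spiking interneurons depend, was higher, while Scn3a and Scn8a were lower. Of 31 members tested, 8 were higher, where 18.2% of all 12843 genes were, and 14 were lower, where 20.7% of all genes were. The median log2 fold change was -0.19 over the members and -0.03 over all genes. Without TMM scaling factors, which moved the median of all genes to 0.13, 11 members were higher and 10 lower.

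Cacna2d2 was at 277, 279 and 311 CPM against 23.1, 21.3 and 24.4 CPM (3.49 ± 0.11, adjusted p = 1.9e-39). The libraries of the classes lay far apart. Scn1a was at 454, 436 and 372 CPM against 273, 289 and 215 CPM (0.54 ± 0.08, adjusted p = 7.1e-08), and every interneuron-like library was above every excitatory-like one. Scn9a, the sodium channel best known from pain-sensing neurons, was at 49.9, 45.1 and 33.7 CPM against 13.1, 22 and 13.7 CPM (1.23 ± 0.14, adjusted p = 1.6e-11), again without overlap. The beta subunit gene Scn2b was at 69.1, 45.9 and 67.4 CPM against 40.1, 35.8 and 44.4 CPM (0.42 ± 0.11, adjusted p = 0.0014), with the lowest interneuron-like library just above the highest excitatory-like one. Its call was lost with DESeq2 (log2 fold change 0.46, adjusted p = 0.054). The AMPA receptor partner genes went both ways. Cacng2, which encodes stargazin, was at 104, 117 and 111 CPM against 62.2, 69.6 and 63.1 CPM (0.61), Cacng4 at 14.2, 14.7 and 10.7 CPM against 6.41, 6.15 and 5.15 CPM (1.02), Cacng5 at 6.02, 14.4 and 9.12 CPM against 2.01, 5.47 and 3.63 CPM (1.26) and Cacng7 at 16.6, 18.2 and 18.2 CPM against 10.2, 11.3 and 8.25 CPM (0.68). All of these were low genes except Cacng2. Cacng3, another AMPA receptor partner, was lower, at 62.7, 72.2 and 76.5 CPM against 105, 105 and 132 CPM (-0.84 ± 0.10, adjusted p = 3.7e-11).

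Lower members included the R-type calcium channel gene Cacna1e, at 252, 274 and 263 CPM against 432, 399 and 398 CPM (-0.8 ± 0.09, adjusted p = 2.1e-12), with no overlap of libraries. Of the T-type genes, whose channels open near rest and drive bursts, Cacna1h was at 49.9, 53.8 and 34.1 CPM against 69.3, 85.1 and 62.7 CPM (-0.81) and Cacna1i at 19.8, 23.9 and 24.6 CPM against 32.1, 38.1 and 32.6 CPM (-0.75). Cacna1g, the other T-type gene, was at 119.7, 113 and 100.3 CPM against 119, 103 and 119.7 CPM (-0.19 ± 0.10, adjusted p = 0.12), with overlapping libraries. Cacna2d1 was at 241, 198 and 170.5 CPM against 338, 302 and 280.4 CPM (-0.76 ± 0.08, adjusted p = 1e-12), the opposite direction to its relative Cacna2d2. Of the cytoplasmic beta subunit genes, Cacnb3 was at 59.1, 61.9 and 65.8 CPM against 87.2, 91 and 86 CPM (-0.67) and Cacnb1 at 28.3, 27.7 and 25.4 CPM against 33.5, 43.9 and 35.2 CPM (-0.64). Both sets of libraries were apart. The sodium channel gene Scn8a, whose product sits at the axon initial segment, was at 333, 282 and 282 CPM against 403, 357 and 330.3 CPM (-0.45 ± 0.08, adjusted p = 6.3e-06), and Scn3a, best known from the developing brain, at 167, 141 and 124 CPM against 202, 168 and 167 CPM (-0.47). Within each library both were lower in interneuron-like nuclei, but the libraries of the classes overlapped. Vip-like nuclei, a part of the interneuron-like class, were above excitatory-like nuclei for Scn3a and Cacna2d1 in every library. Scn7a was at 11.7, 10.1 and 6.34 CPM against 14.5, 13.8 and 19.2 CPM (-0.87 ± 0.21, adjusted p = 0.00062), and this call was lost with DESeq2 (adjusted p = 0.25). The lower calls of Scn2a (-0.26), the P/Q-type gene Cacna1a (-0.27), Scn3b (-0.28) and Cacnb4 (-0.3) were small and ended without TMM scaling (log2 fold changes of -0.10, -0.11, -0.12 and -0.13). They do not hold for every interneuron-like class. In CPM, Pvalb-like nuclei were above excitatory-like nuclei for Cacna1a in every library, and Sst-like nuclei were above them for Scn3b. The Scn2a call was also lost without any 1 of the 3 libraries (adjusted p from 0.092 to 0.14), that of Cacna1a without C57BL/6J or Nav1 KO (0.15 and 0.061) and that of Scn3b without BTBR or Nav1 KO (0.17 and 0.16), and all 3 with DESeq2 (0.067, 0.17 and 0.14). Members that passed in neither direction included the N-type gene Cacna1b (-0.08 ± 0.09, adjusted p = 0.51) and the L-type genes Cacna1c (-0.06 ± 0.10, adjusted p = 0.67) and Cacna1d (-0.07 ± 0.09, adjusted p = 0.55). In CPM, without TMM factors, Cacna1d was higher in every interneuron-like library, at 464.0 to 483.0 against 439.4 to 451.0 CPM. Cacna2d3, at 183.2 to 210.4 against 144.5 to 178.5 CPM, was also higher in each and did not pass.

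**Figure D2:**
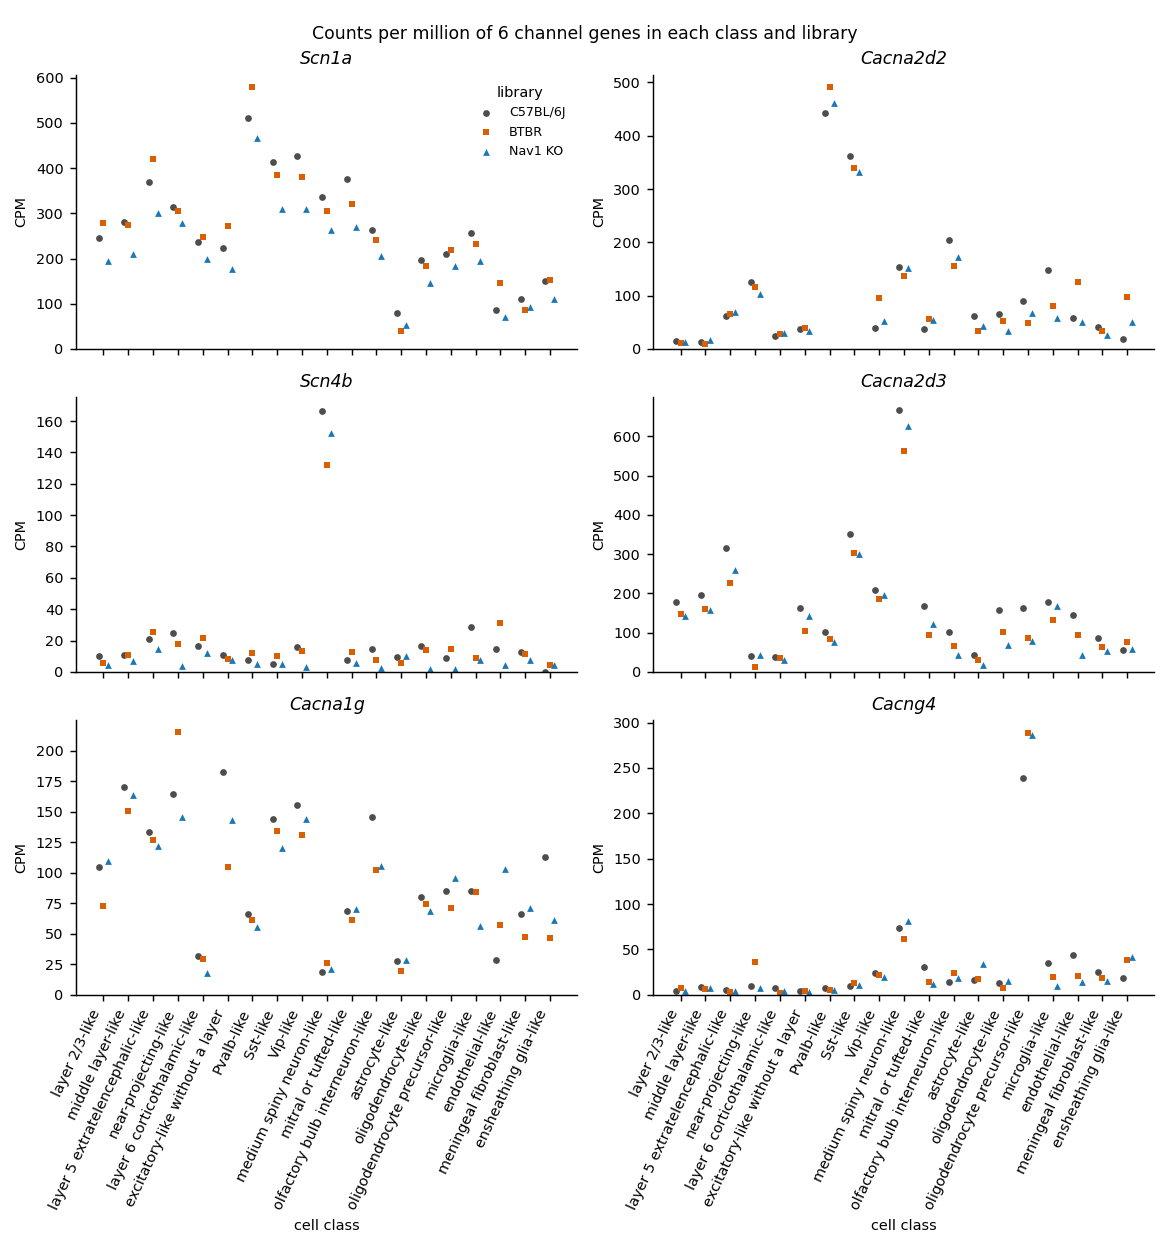
CPM of 6 channel genes (panels, each with its own linear axis from 0) in 19 cell classes, 1 point per library: dark grey circles C57BL/6J, orange squares BTBR, blue triangles Nav1 KO. Within a class the 3 libraries lie closer together than the classes with the highest and lowest levels; Scn1a is highest in Pvalb-like, Scn4b and Cacna2d3 in medium spiny neuron-like and Cacng4 in oligodendrocyte precursor-like nuclei.

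Among cortical interneurons, the Pvalb-like class (256 to 318 nuclei per library) marks fast-spiking cells, which fire brief spikes at high rates. Against the mean of the Sst-like and Vip-like classes, its nuclei had more Cacna2d2, Cacna1a, Scn1a and Scn8a, and less Cacna2d3, Cacng4, Cacna1g, Scn3a and Scn3b. Of 31 members tested, 7 were higher (6.92% of all 13721 genes were) and 12 were lower (6.38% of all genes). The median log2 fold change was -0.34 over the members and 0.01 over all genes.

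Scn1a was at 512, 579.9 and 466 CPM in Pvalb-like, 414, 384 and 309 CPM in Sst-like and 428, 379.5 and 309.7 CPM in Vip-like nuclei (0.54 ± 0.08, adjusted p = 7.4e-08). The lowest Pvalb-like library was above the highest of the other 2 classes. After each nucleus was thinned to 1000 counts, 46.05%, 42.76% and 44.13% of Pvalb-like nuclei had an Scn1a count (75.16%, 76.39% and 76.17% unthinned), against 5.64%, 3.26% and 4.74% of astrocyte-like nuclei (8.52%, 6.70% and 7.55% unthinned). The median counts per nucleus before thinning were 2878 in Pvalb-like and 1315.5 in astrocyte-like nuclei, and between 8 and 157 nuclei of a class and library were shallower and left out. Scn8a was also higher, at 399.9, 310.5 and 340.5 CPM in Pvalb-like, 287, 249 and 233 CPM in Sst-like and 299, 286 and 255 CPM in Vip-like nuclei (0.43 ± 0.08, adjusted p = 4.8e-05). Scn3a, in turn, was at 116, 83.3 and 72 CPM against 187, 149.7 and 126 CPM and 204, 173 and 200.4 CPM (-0.88 ± 0.12, adjusted p = 1.2e-08), Scn3b at 56.4, 53.9 and 42.4 CPM against 79, 113 and 92.9 CPM and 87.1, 102 and 95.6 CPM (-0.84 ± 0.14, adjusted p = 3e-06), and Scn2a at 378, 351 and 349 CPM against 566, 510.0 and 422 CPM and 576, 532 and 522 CPM (-0.49 ± 0.09, adjusted p = 7e-06). For all 3 genes the Pvalb-like libraries were below every library of the other classes.

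Among the calcium channel genes, Cacna1a, the main release channel of fast-spiking terminals, was at 542, 409.5 and 402 CPM in Pvalb-like, 438, 318 and 265 CPM in Sst-like and 342, 272 and 273 CPM in Vip-like nuclei (0.56 ± 0.09, adjusted p = 2.1e-06). It was highest in Pvalb-like nuclei within each library, but the levels of C57BL/6J overlapped those of the other libraries across classes. The L-type gene Cacna1d was at 526, 525 and 568 CPM against 369, 412 and 400.0 CPM and 476, 506 and 451 CPM (0.35 ± 0.08, adjusted p = 0.00082), and its call was lost without the Nav1 KO library (0.30, adjusted p = 0.06). Cacna1e was at 191, 188 and 202 CPM against 315, 349 and 324 CPM and 265, 277 and 278 CPM (-0.59 ± 0.09, adjusted p = 4.4e-07), and Cacna1g at 66.2, 61.7 and 55.3 CPM against 144, 134 and 120.0 CPM and 155, 131 and 144 CPM (-1.14 ± 0.14, adjusted p = 8.9e-10). Both were lowest in Pvalb-like nuclei in every library. Cacna1b (-0.41) and Cacna1h (-0.56) were lower too. The call of Cacna1h was lost without the C57BL/6J or the Nav1 KO library (-0.32, adjusted p = 0.45 without Nav1 KO).

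The Cacna2d genes divided the interneuron classes. Cacna2d2 was at 442, 491 and 461 CPM in Pvalb-like, 361, 339.7 and 332 CPM in Sst-like and 39.1, 95.7 and 53.1 CPM in Vip-like nuclei, and thinned shares of nuclei with a count were 39.47%, 41.75% and 38.46% in Pvalb-like nuclei (66.98%, 73.77% and 72.27% unthinned) against 1.53%, 1.28% and 0.778% in layer 2/3-like nuclei (3.82%, 3.24% and 4.22% unthinned). The contrast gave 1.65 ± 0.11, adjusted p = 6.7e-22 for Pvalb-like nuclei and 0.95 ± 0.12, adjusted p = 7.3e-10 for Sst-like nuclei. Cacna2d3 was at 351, 304 and 301 CPM in Sst-like nuclei, 209, 187 and 196 CPM in Vip-like nuclei and 102, 84.2 and 76 CPM in Pvalb-like nuclei (-1.48 ± 0.13, adjusted p = 1.1e-16 for Pvalb-like, 1.27 ± 0.11, adjusted p = 7.8e-17 for Sst-like). Cacna2d1 was at 439, 328 and 349 CPM in Vip-like, 159, 102 and 116 CPM in Pvalb-like and 99.1, 107 and 96.5 CPM in Sst-like nuclei. Of these 3 classes, Cacna2d2 was highest in Pvalb-like, Cacna2d3 in Sst-like and Cacna2d1 in Vip-like nuclei in every library. Of the remaining Pvalb-like calls, Cacng2 was at 119, 143 and 129 CPM against 103, 106 and 102 CPM and 91.1, 108 and 92.6 CPM (0.41), and Cacng4 at 7.79, 4.9 and 4.93 CPM against 10, 13.4 and 10.6 CPM and 24, 22 and 19.7 CPM (-1.39). Cacng4 lost its call without the BTBR library (-1.19, adjusted p = 0.074). Cacnb2 (-0.65), Cacna2d1 (-0.58) and Cacng3 (-0.47) were lower. Pvalb-like Cacna2d1 was below Vip-like Cacna2d1 in every library, but above the Sst-like level in C57BL/6J and Nav1 KO. The calls of Cacng3 and of Cacnb2 ended without the Nav1 KO library (-0.54, adjusted p = 0.053, and -0.48, adjusted p = 0.074), and that of Cacng3 also without the BTBR library (-0.34, adjusted p = 0.27) or the C57BL/6J library (-0.52, adjusted p = 0.05).

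Sst-like nuclei (234 to 324 per library) come from low-threshold spiking, dendrite-targeting cells. Against the mean of Pvalb-like and Vip-like nuclei, 7 of 31 members were higher (6.54% of all 13721 genes) and 5 were lower (4.18% of all genes), with a median log2 fold change of 0.02 over the members and -0.02 over all genes. Besides Cacna2d3 and Cacna2d2, the higher members were Cacng3, at 89.1, 108 and 98.8 CPM in Sst-like, 51.6, 50 and 63.2 CPM in Pvalb-like and 53.1, 61.4 and 68.3 CPM in Vip-like nuclei (0.77 ± 0.14, adjusted p = 7.2e-06), Cacna1e (0.51 ± 0.09, adjusted p = 3.4e-06), Cacna1g (0.51 ± 0.13, adjusted p = 0.0039), Scn3b (0.45 ± 0.13, adjusted p = 0.013) and Cacng8 (0.74 ± 0.25, adjusted p = 0.038). Cacng8, an AMPA receptor partner best known from the hippocampus, was at only 26.3, 20.6 and 27.1 CPM in Sst-like nuclei, and its call was lost without the BTBR library (0.61, adjusted p = 0.27) or the Nav1 KO library (0.62, adjusted p = 0.29). Lower members were Cacna2d1 (-1.09 ± 0.11, adjusted p = 3.6e-14), Cacnb2 (-0.44), Cacna1d (-0.38), Scn8a (-0.3) and Scn1a (-0.26). The Scn1a call ended without any of the 3 libraries (adjusted p = 0.08, 0.098 and 0.18). The Scn1a levels of Vip-like nuclei were close to those of Sst-like nuclei, and those of Pvalb-like nuclei were higher. For Cacna1g and Scn3b, Sst-like levels were below Vip-like ones in C57BL/6J and Nav1 KO and above them in BTBR, while Pvalb-like levels were lowest. Sst-like Cacna2d2 was below Pvalb-like Cacna2d2 in every library. Sst-like Cacna2d1 was far below Vip-like Cacna2d1 but above the Pvalb-like level in BTBR. The contrast for Scn3b was lost without BTBR or Nav1 KO (adjusted p = 0.24 and 0.15), that for Scn8a without C57BL/6J or Nav1 KO (0.095 and 0.12), that for Cacna1g without C57BL/6J (0.053), and that for Cacnb2 without BTBR or C57BL/6J (0.51 and 0.20). Fewer and larger clusters moved Pvalb-like nuclei into the Sst-like cluster, and 4 of these calls then changed direction.

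The striatal medium spiny neuron-like nuclei (285 to 921 per library), the class of GABAergic projection neurons with dopamine receptors, differed from cortical excitatory-like nuclei in genes of every channel family. Scn4b, Cacng4, Cacna2d2, Cacna2d3 and Cacnb2 were higher and Cacna1g, Scn7a and Cacna2d1 lower. Of 31 members tested, 14 were higher (16.5% of all 12843 genes) and 9 were lower (18.8% of all genes). The median log2 fold change was 0.22 over the members and -0.02 over all genes. The contrasts of interneuron-like, medium spiny neuron-like and mitral or tufted-like nuclei share the excitatory-like sums.

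Scn4b (chr9:45138395-45154152), a beta subunit gene tied to resurgent sodium current, was at 167, 132 and 152 CPM against 12.9, 12.2 and 7.51 CPM (3.76 ± 0.14, adjusted p = 4.5e-35), more than any other class in every library. Thinned to 1000 counts, 15.7%, 12.15% and 13.6% of medium spiny neuron-like nuclei had an Scn4b count (25.52%, 23.15% and 30.88% unthinned), against 1.03%, 0.977% and 1.29% of astrocyte-like nuclei (1.14%, 0.957% and 1.51% unthinned). Of the other beta subunit genes, Scn3b was at 142, 177 and 141 CPM against 70.2, 107 and 83 CPM (0.83 ± 0.10, adjusted p = 1.6e-10) and Scn2b at 68.6, 45.2 and 80.1 CPM against 40.1, 35.8 and 44.4 CPM (0.65 ± 0.14, adjusted p = 8.4e-05). The libraries were apart for both. Among the alpha genes, Scn3a was at 368, 257 and 305 CPM against 202, 168 and 167 CPM (0.79) and Scn9a at 38.1, 31.9 and 34.2 CPM against 13.1, 22 and 13.7 CPM (1.09), both without overlap. Scn8a was at 286, 276 and 267 CPM against 403, 357 and 330.3 CPM (-0.41). Scn1a (0.22 ± 0.09, adjusted p = 0.053) and Scn2a (-0.01 ± 0.09, adjusted p = 0.95) did not pass. Scn7a, at 0, 4.43 and 1.31 CPM against 14.5, 13.8 and 19.2 CPM, was nearly undetected (-3.18 ± 0.50, adjusted p = 2.1e-07).

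Of the calcium channel genes, Cacna2d3 (chr14:28904943-29721864) was at 667, 562 and 627 CPM against 178, 144 and 148 CPM (1.97 ± 0.10, adjusted p = 1.3e-26), Cacna2d2 at 154, 136 and 152 CPM against 23.1, 21.3 and 24.4 CPM (2.67 ± 0.13, adjusted p = 5.8e-28) and Cacnb2 at 389, 209 and 304 CPM against 102, 89.4 and 81.4 CPM (1.71 ± 0.10, adjusted p = 4.3e-24). The classes were apart for each, although BTBR had the lowest Cacnb2 level of the 3 medium spiny neuron-like libraries. The T-type genes separated. Cacna1h was at 121, 142 and 119.6 CPM against 69.3, 85.1 and 62.7 CPM (0.8), while Cacna1g was at 19, 25.7 and 21 CPM against 119, 103 and 119.7 CPM (-2.42 ± 0.17, adjusted p = 1.2e-20), its lowest level of any class by the mean. Cacna1i, at 53.6, 37.2 and 51.2 CPM against 32.1, 38.1 and 32.6 CPM, passed (0.49 ± 0.15, adjusted p = 0.0065) but not without the C57BL/6J library (0.26, adjusted p = 0.42). The P/Q-type and N-type release channel genes were lower: Cacna1a at 298, 253 and 223 CPM against 490.5, 356 and 331 CPM (-0.61) and Cacna1b at 181, 182 and 116 CPM against 221, 246 and 204 CPM (-0.47). The L-type genes went in opposite directions. Cacna1c was at 163, 149 and 148 CPM against 116, 99.6 and 97.6 CPM (0.54) and Cacna1d at 278, 353 and 305 CPM against 451, 451 and 439 CPM (-0.53), each without overlap. Cacna1e was at 610.1, 576 and 591 CPM against 432, 399 and 398 CPM (0.52). Lower auxiliary genes were Cacna2d1, at 205, 213 and 175 CPM against 338, 302 and 280.4 CPM (-0.65), and Cacnb3, at 49, 76.2 and 59.1 CPM against 87.2, 91 and 86 CPM (-0.55), the latter lost without C57BL/6J (-0.39, adjusted p = 0.076). Cacng4 was at 73.2, 61.1 and 81.5 CPM against 6.41, 6.15 and 5.15 CPM (3.58 ± 0.16, adjusted p = 3.4e-30) and Cacng5 at 4.61, 21.3 and 10.5 CPM against 2.01, 5.47 and 3.63 CPM (1.68 ± 0.32, adjusted p = 1.1e-05). Cacng4 stood far above excitatory-like nuclei in every library, whereas the C57BL/6J medium spiny neuron-like level of Cacng5 was below the BTBR excitatory-like level.

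Olfactory bulb mitral or tufted-like nuclei (36, 271 and 585) are excitatory output neurons of the bulb, and the C57BL/6J sum rests on 36 nuclei. Cacng5, Cacng7 and Cacnb4 were higher than in cortical excitatory-like nuclei and Cacng3, Cacna1g and Cacnb3 lower. Of 31 members tested, 6 were higher (14% of all 12843 genes) and 13 were lower (15% of all genes), with medians of -0.24 and -0.03. Without the Nav1 KO library, which holds most of these nuclei, 6 members were lower. Without TMM scaling factors 9 were higher and 9 lower.

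Cacnb4, the beta subunit gene mutated in the lethargic mouse, was at 474, 368 and 342 CPM against 178, 141 and 135 CPM (1.23 ± 0.09, adjusted p = 1.4e-18), with every bulb library above every cortical one. The partner genes of AMPA receptors that are rare in cortex were higher, Cacng5 at 30.6, 50.1 and 41.3 CPM against 2.01, 5.47 and 3.63 CPM (3.21 ± 0.24, adjusted p = 4.3e-19), Cacng7 at 38.2, 30.3 and 40.9 CPM against 10.2, 11.3 and 8.25 CPM (1.85 ± 0.19, adjusted p = 4.2e-13) and Cacng4 at 30.6, 14 and 12.4 CPM against 6.41, 6.15 and 5.15 CPM (1.1). Cacng3 was lower, at 61.2, 41.9 and 59.9 CPM against 105, 105 and 132 CPM (-1.26 ± 0.14, adjusted p = 3.4e-12). The classes were apart for each of these 4 genes. Cacna2d2 was at 38.2, 55.9 and 54.1 CPM against 23.1, 21.3 and 24.4 CPM (1.12) and Scn9a at 61.2, 48.9 and 28.1 CPM against 13.1, 22 and 13.7 CPM (1.11). Cacna1g was at 68.9, 61.7 and 70.5 CPM against 119, 103 and 119.7 CPM (-0.85 ± 0.14, adjusted p = 3.4e-07), Cacna1c at 91.8, 60.5 and 61 CPM against 116, 99.6 and 97.6 CPM (-0.81), Cacnb3 at 30.6, 43.1 and 60.3 CPM against 87.2, 91 and 86 CPM (-0.84) and Cacnb1 at 30.6, 24.4 and 24.1 CPM against 33.5, 43.9 and 35.2 CPM (-0.71). Scn7a had the largest lower change (-1.36 ± 0.33, adjusted p = 0.00073) but was low in both classes, at 7.65, 2.33 and 9.13 CPM against 14.5, 13.8 and 19.2 CPM, and its call was lost with DESeq2 (adjusted p = 0.064). The call of Cacnb1 ended without Nav1 KO (adjusted p = 0.058). Scn3b (-0.51), Cacna2d3 (-0.47), Scn2a (-0.45), Cacna1e (-0.39), Scn3a (-0.33), Cacna2d1 (-0.32) and Scn8a (-0.24) were lower with smaller changes. Of these, Scn3b, Cacna1e, Scn3a, Cacna2d1 and Scn8a were not called without Nav1 KO (adjusted p from 0.062 to 0.34). Scn3a and Scn8a were not called without C57BL/6J (0.091 and 0.23), and Scn2a and Scn8a not without BTBR (0.073 and 0.56). Over 12 alternative settings the call of Cacna2d3 held in 6, that of Scn3a in 3 and that of Scn8a in 1. Olfactory bulb interneuron-like nuclei (115 to 803), the GABAergic neurons of the same structure, had high levels of the L-type genes, with Cacna1d at 664, 632 and 747 CPM and Cacna1c at 248, 231 and 204 CPM. These levels were not tested against another class.

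**Figure D3:**
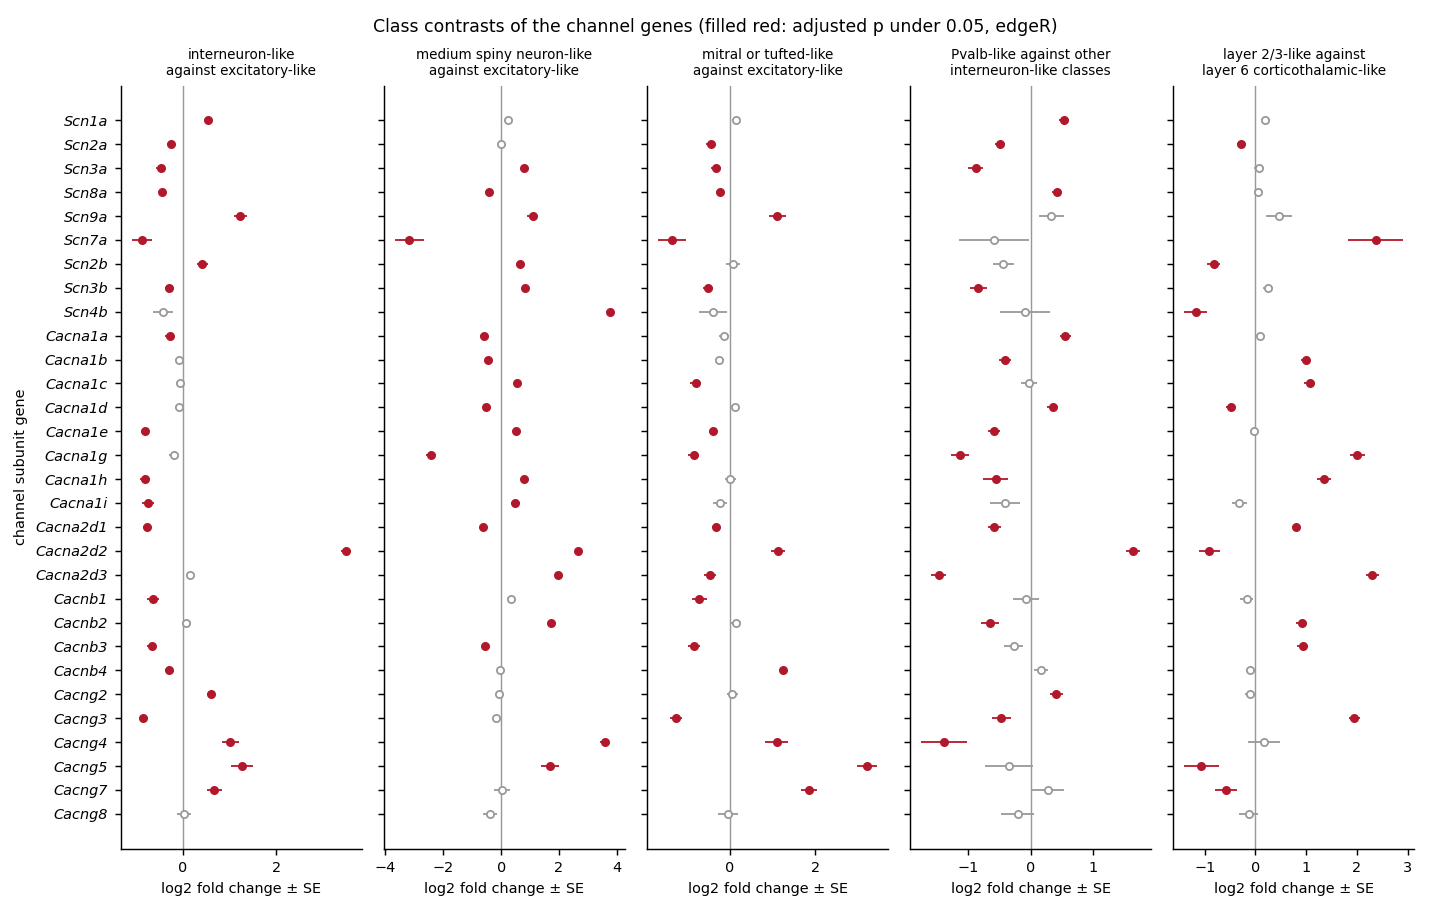
Log2 fold change (points) ± SE (bars) of 30 of the 31 tested channel genes in 5 class contrasts, 1 panel each with its own linear axis, fitted with edgeR over 3 libraries. Filled red points have an adjusted p under 0.05 and open grey points do not; Cacna2d2 is farthest right in the interneuron-like and Pvalb-like panels, Scn4b and Cacng4 in the medium spiny neuron-like panel and Cacng5 in the mitral or tufted-like panel.

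Within the cortical excitatory classes, layer 2/3-like nuclei (1665 to 2085 per library) were compared with layer 6 corticothalamic-like nuclei (708 to 1074). Upper-layer nuclei had more Scn7a, Cacna2d3, Cacna1g and Cacng3, and less Scn4b, Cacng5, Cacna2d2 and Scn2b. Of 31 members tested, 10 were higher (16.5% of all 13721 genes) and 7 were lower (15.2% of all genes), with medians of 0.07 over the members and 0.01 over all genes. Layer 2/3-like nuclei of BTBR came from a cluster of their own.

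Of the calcium channel genes, Cacna2d3 was at 178, 148 and 142 CPM against 37.3, 35.6 and 31.3 CPM (2.3 ± 0.13, adjusted p = 4.5e-28) and Cacna1g at 105, 72.8 and 109.7 CPM against 31.5, 29.2 and 17.8 CPM (2.01 ± 0.14, adjusted p = 1.3e-22). The BTBR layer 2/3-like level of Cacna1g was the lowest of the 3 but still above every layer 6 library. Cacna1h was at 64.5, 72.1 and 56.1 CPM against 17.2, 46 and 21.7 CPM (1.35 ± 0.14, adjusted p = 2.6e-13), Cacna1c at 137, 121 and 125 CPM against 81.9, 67.8 and 50.4 CPM (1.07 ± 0.11, adjusted p = 1.8e-14) and Cacna1b at 220.4, 258 and 213 CPM against 120.4, 145 and 116 CPM (0.98 ± 0.10, adjusted p = 3.4e-15), all without overlap. The L-type gene Cacna1d went the other way, at 387, 404 and 387 CPM against 600.4, 588 and 619 CPM (-0.49 ± 0.08, adjusted p = 7.9e-07). Cacnb2 was at 137, 131 and 109 CPM against 89.7, 66.3 and 63.4 CPM (0.91), Cacnb3 at 107, 117 and 100.2 CPM against 57.3, 64.8 and 63 CPM (0.93) and Cacna2d1 at 401, 361 and 314 CPM against 239, 233 and 204 CPM (0.79). Cacna2d2 was lower, at 14.8, 11.7 and 12.5 CPM against 23.3, 27.2 and 30 CPM (-0.91). Cacng3 was at 169, 156 and 194 CPM against 49.6, 48.5 and 48.2 CPM (1.95 ± 0.11, adjusted p = 1.2e-28), its highest class in every library.

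Of the sodium channel genes, Scn4b was at 10.3, 5.5 and 4.56 CPM against 16.8, 21.8 and 12.2 CPM (-1.18 ± 0.23, adjusted p = 1.3e-05) and Scn2b at 29.4, 23.8 and 37.5 CPM against 54.1, 56.4 and 66.9 CPM (-0.82 ± 0.13, adjusted p = 8.5e-08), both lower in the upper layer in every library. Scn2a was at 486, 472 and 402 CPM against 616, 590.1 and 588 CPM (-0.28 ± 0.08, adjusted p = 0.0061), and this call was lost without Nav1 KO (-0.22, adjusted p = 0.13). Scn1a (0.19 ± 0.08, adjusted p = 0.071), Scn8a (0.05 ± 0.08, adjusted p = 0.67) and Scn3a (0.07 ± 0.09, adjusted p = 0.64) did not pass. Scn7a was at 2.98, 2.75 and 8.88 CPM against 0.819, 0.99 and 1.3 CPM (2.37 ± 0.55, adjusted p = 0.00026), low in both, and lost its call without Nav1 KO (1.70, adjusted p = 0.095). Its main class was the middle layer-like one, at 39.5, 35.2 and 44.9 CPM, where 3.68%, 3.42% and 3.92% of nuclei thinned to 1000 counts had a count (8.95%, 9.12% and 10.13% unthinned), against 0.0969%, 0 of 695 nuclei, which allows a share of up to 0.432% (3 counts), and 0.129% of layer 6 corticothalamic-like nuclei (0.186%, 0.283% and 0.248% unthinned). Cacng5 (-1.06) and Cacng7 (-0.58) were lower in layer 2/3-like nuclei, and their calls were lost without Nav1 KO (adjusted p = 0.087 and 0.28), that of Cacng7 also without BTBR (0.30). Layer 5 extratelencephalic-like nuclei, the large output neurons of the deep cortex, had the highest levels of Cacna1h, at 235, 289.7 and 192 CPM, and of Scn8a, at 430.3, 421 and 379.5 CPM, in every library. These were not tested.

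In glia the channel genes were read against free RNA of excitatory neurons only. Oligodendrocyte precursor-like nuclei (163 to 268 per library) were compared with oligodendrocyte-like nuclei (240 to 410). Cacng4 was the only higher member of 31 (7.26% of all 12843 genes were higher), at 239, 288 and 286 CPM against 12.5, 8.02 and 15.2 CPM (4.37 ± 0.24, adjusted p = 2.1e-25), and this gene (chr11:107732357-107794557) was highest in precursor-like nuclei in all 3 libraries. Thinned shares of nuclei with a Cacng4 count were 17.58%, 27.16% and 30.26% against 1.21%, 1.97% and 2.59% (25.77%, 36.86% and 38.81% against 2.44%, 1.67% and 3.31% unthinned), at median counts per nucleus of 1209.5 and 1369. Lower members numbered 7 (7.45% of all genes): Cacng2 (-1.34 ± 0.30, adjusted p = 0.0004), Cacng3 (-1.11 ± 0.26, adjusted p = 0.0012), Cacnb4 (-0.83 ± 0.17, adjusted p = 9.1e-05), Scn3b (-0.66), Cacna1b (-0.61), Cacna1e (-0.61) and Cacna2d1 (-0.48). The Scn3b call was lost in all 12 alternative settings, with log2 fold changes from -0.67 to -0.066. The median over the members was -0.29 and over all genes -0.04. The 5 excitatory marker genes summed to 597.7, 460.5 and 538.5 CPM in precursor-like nuclei against 622.9, 625.3 and 678.5 CPM in oligodendrocyte-like nuclei, so this neuronal signal moved with the 7 lower members, and its part in them was not tested. Without the Nav1 KO library 3 were called, without either of the other libraries 4, and with nuclei under 5% mitochondrial counts 2. Cacng2, a lower member in every setting, was at 21.4, 19.7 and 24 CPM against 49.9, 42.1 and 57.8 CPM. Cacna2d4, the fourth gene of its family and best known from the retina, was highest in oligodendrocyte-like nuclei at 8.32, 16 and 6.08 CPM and was not past the filter on low counts. These levels rest on 8, 8 and 4 counts. In every library their counting interval overlapped that of the second class, so the rank is uncertain.

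The remaining members were rarely seen. Scn10a (11, 20 and 15 counts in a library) and Scn11a (7, 46 and 2), genes of sensory neurons, Cacna1s (13, 37 and 33) and Cacng1 (8, 12 and 12), genes of muscle, Cacna1f (15, 31 and 21), a gene of the retina, and Cacng6 (18, 74 and 41) were below 20 counts in at least 1 library. Scn4a, the skeletal muscle sodium channel gene, had 0 counts in all 3 libraries, which allows up to 3 counts in each.

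A list of 33 partner genes of these channels (fibroblast growth factor homologues, ankyrins, release-site proteins, calmodulins and regulators), of which 32 were in the matrices and 29 were tested, was read beside the members. Of these 29, 6 were higher and 15 lower in interneuron-like than in excitatory-like nuclei (18.2% and 20.7% of all genes), led by Fgf11, whose product binds the sodium channel tail (2.39 ± 0.16, adjusted p = 7.1e-21), and Stx1a, the release protein syntaxin (-1.35 ± 0.09, adjusted p = 2.3e-20). In medium spiny neuron-like nuclei 7 were higher and 11 lower (16.5% and 18.8% of all genes), with Rem2, an inhibitor of calcium channels, at 3.92 ± 0.26, adjusted p = 1.4e-21, Fgf11 at 2.25 and Stx1a at -2.18. In mitral or tufted-like nuclei 2 were higher and 13 lower, against 14% and 15% of all genes (Nedd4l, a ubiquitin ligase that removes sodium channels, -1.02; Unc80, of the sodium leak channel complex, 0.64). In Pvalb-like nuclei, where 6.92% of all genes were higher and 6.38% lower, 8 were higher, among them Stac2 (1.23 ± 0.22, adjusted p = 9.3e-06) and Fgf12 (0.5), and 5 lower, led by Fgf13 (-1.29 ± 0.25, adjusted p = 4.5e-05). In Sst-like nuclei 3 were higher and 6 lower (6.54% and 4.18% of all genes), and Rimbp2, which ties calcium channels to release sites, was at -0.96 ± 0.12, adjusted p = 3.5e-10. In layer 2/3-like against layer 6 corticothalamic-like nuclei 8 were higher and 10 lower (16.5% and 15.2% of all genes), with Rimbp2 at 1.11 and Fgf11 at -2.05. In precursor-like against oligodendrocyte-like nuclei 2 were higher and 7 lower (7.26% and 7.45% of all genes). Of the adhesion genes, Nfasc was at -1.74 ± 0.17, adjusted p = 1.6e-13 and Cntn1 at 1.5 ± 0.15, adjusted p = 2.2e-13.

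The genes whose level was most like that of Scn1a over the 57 sums of 19 classes and 3 libraries were Meg3 (Pearson r = 0.92), Rian (0.916), Adam22 (0.91), Mirg (0.909) and Kif5a (0.898), of 13883 genes compared. For the T-type gene Cacna1i they included Cacna1c (0.828), Fam117b (0.815), Rnf150 (0.813) and Dnajb5 (0.802). These are descriptions: the sums share libraries, depth and neuronal content.

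Between libraries there was 1 pool per group and no replicate check, so values are ratios of CPM within a class with exact 95% intervals from the split of the counts. The intervals cover counting error only, and the design cannot tell genotype or strain apart from the pool, the dissection and the library. Only genes that reached 20 CPM in either library, and 20 counts in the pair, were compared.

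In Nav1 KO against C57BL/6J excitatory-like nuclei, 0 of 24 members were past 1.5-fold higher (2.06% of all 7264 genes were) and 0 were past it lower (3.17% of all genes). The median ratio was 0.9206 over the members and 0.9215 over all genes. Ratios of 15 members were below 1, 13 with intervals below 1, and those of 9 were above 1, 3 with intervals above 1. Of all 7264 genes, 65.1% were below 1, 47.2% with intervals below 1, and 34.9% above 1, 21% with intervals above 1. The nearest to the fold was Cacna1a, at 490.5, 356 and 331 CPM, with a KO ratio of 0.68 (95% interval 0.65 to 0.70). C57BL/6J was high and the other 2 libraries were alike. With the classes weighted equally, or nuclei thinned, Cacna1a was past the fold. Cacnb4 followed with a KO ratio of 0.76 (95% interval 0.72 to 0.80) and levels of 178, 141 and 135 CPM, and Scn1a with 0.79 (95% interval 0.75 to 0.82) and levels of 273, 289 and 215 CPM. For Scn1a it was the Nav1 KO library that was low. The highest KO ratio was that of Cacng3, 1.26 (95% interval 1.18 to 1.34). Across the 19 classes Cacna1a was lower in Nav1 KO than in C57BL/6J in 19 of 19, 13 with intervals below 1. Scn1a was lower in 19 of 19, 10 with intervals below 1. The classes come from the same libraries and share their free RNA, so they are not repeats of a difference. The share of all genes lower in every class was not computed. Glia were among those classes: in microglia-like nuclei Cacna1a was at 341, 351 and 177 CPM. In interneuron-like nuclei, 0 of 26 members were past the fold higher (3.14% of all 7808 genes) and 0 lower (5.64% of all genes), with a median ratio of 0.8592 over the members and 0.9329 over all genes. Scn9a, at 49.9, 45.1 and 33.7 CPM, had a KO ratio of 0.67 (95% interval 0.51 to 0.89), and Cacna1h, at 49.9, 53.8 and 34.1 CPM, one of 0.68 (95% interval 0.52 to 0.90).

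**Figure D4:**
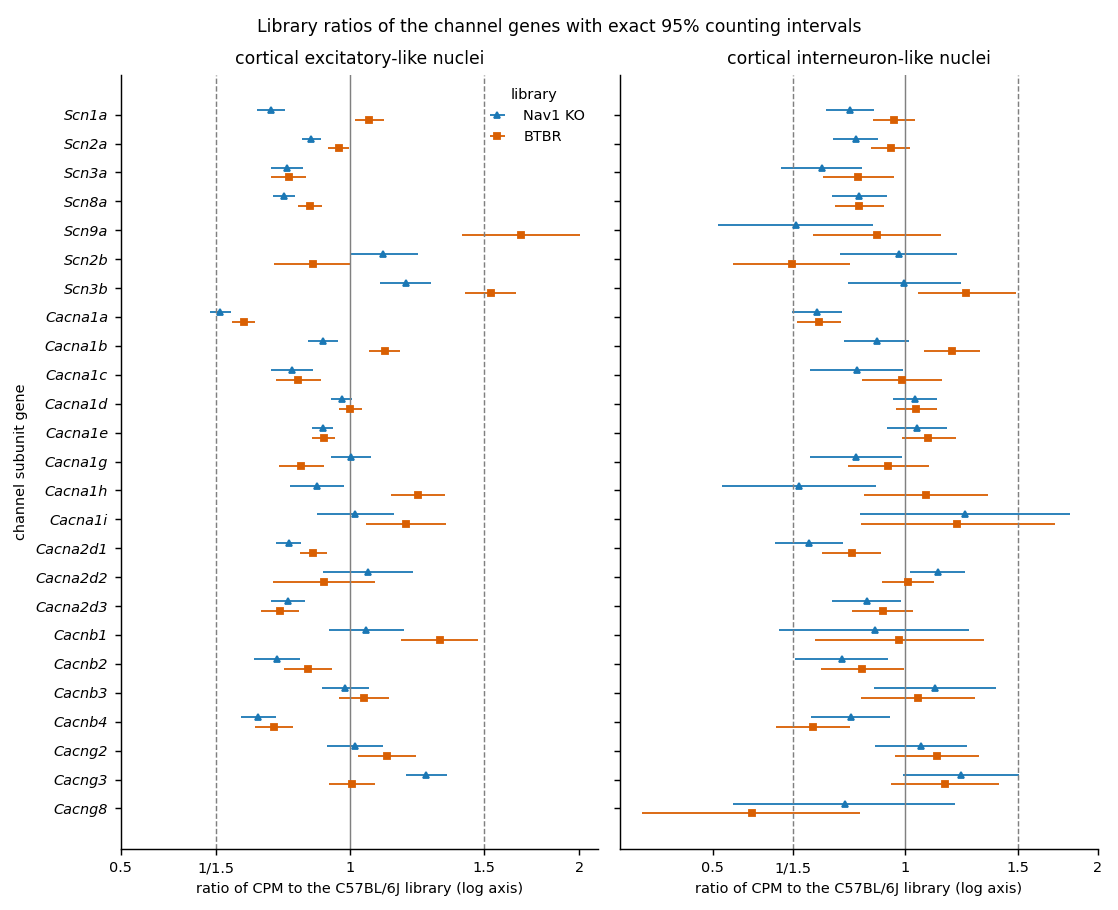
Ratio of CPM to the C57BL/6J library (log axis) for channel genes past the floor in cortical excitatory-like (left) and interneuron-like (right) nuclei: blue triangles Nav1 KO, orange squares BTBR, bars the exact 95% interval of counting error. Dashed lines mark 1.5-fold; Cacna1a lies at the left near the lower line for both libraries and both classes, and Scn3b and Scn9a of BTBR lie past the upper line in excitatory-like nuclei.

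In BTBR against C57BL/6J excitatory-like nuclei, 2 of 25 members were past 1.5-fold higher (5.42% of all 7437 genes) and 0 lower (4.71% of all genes). The median ratio was 0.9666 over the members and 1.002 over all genes. The 2 were Scn3b, at 70.2, 107 and 83 CPM with a BTBR ratio of 1.53 (95% interval 1.42 to 1.65), and Scn9a, at 13.1, 22 and 13.7 CPM with one of 1.67 (95% interval 1.40 to 2.00). BTBR was the highest library for both. Scn3b was above 1 in 13 of 17 classes past the floor, 7 with intervals above 1, and these classes again come from the same libraries. Scn9a was not past the fold in thinned nuclei (1.34), with equally weighted classes (1.36) or with the members among the variable genes (1.44). Cacna1a had a BTBR ratio of 0.72 (95% interval 0.70 to 0.75). In interneuron-like nuclei 0 of 26 members were past the fold higher (6.49% of all 7987 genes) and 2 were lower (4.72% of all genes), with a median ratio of 0.9688 over the members and 1.014 over all genes. Cacng8 was at 22.7, 13 and 18.2 CPM, a ratio of 0.57 (95% interval 0.39 to 0.85), on 48 and 64 counts. Scn2b was at 69.1, 45.9 and 67.4 CPM, a ratio of 0.66 (95% interval 0.54 to 0.82), with BTBR low and the other 2 libraries alike. Middle layer-like and layer 2/3-like nuclei, which make up most excitatory-like nuclei, came mostly from separate clusters in BTBR and in the 2 C57BL/6J-based libraries.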

How the data were processed

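Nuclei had been profiled by droplet 3′ single-nucleus RNA sequencing, with 1 library per group. The deposited matrices hold raw unique molecular identifier counts per gene and nucleus, which the authors made with Cell Ranger 6.0.0 on mm10, per the submitters' processing notes. Nuclei were kept if 200 or more genes were detected and the mitochondrial share of counts stayed below 10%. They were clustered with Seurat 5.3.0 (R 4.3.3) on 2000 variable genes without the channel genes, and clusters were named from marker lists. The doublet caller of scanpy 1.11.5 (Python 3.11.15) called 1, 0 and 1 nuclei, so it did not work and no single nucleus was removed as a doublet. Doublet scores still entered the naming, because a named cluster could hold at most 20% high-scoring nuclei. High-scoring here means the top 10% of scores. Any cluster past that limit stayed unnamed and so outside the class sums and contrasts. How many nuclei this limit left unnamed is not reported here. Leaving out the 10% of nuclei with the highest scores was an alternative.

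Counts were summed per class and library, and classes were compared with edgeR 4.0.16 (quasi-likelihood test, TMM factors, library as a block, Benjamini-Hochberg adjustment over all genes, threshold 0.05). With 1 library per class and group, the 3 libraries are the replicates of a class, although they differ in genotype or strain. Libraries were compared as ratios of CPM with exact 95% binomial intervals that cover counting error only. Intervals of shares are exact binomial. Procedures were tested on simulated data with a set spread. In the simulated interneuron-like contrast, edgeR recovered 15 of 44 genes changed to 0.5-fold and 22 of 45 changed 2-fold. It recovered 37 of 38 changed to 0.25-fold and 45 of 45 changed 4-fold, and called 3 of 11255 unchanged genes. A member that did not pass can therefore still differ. Alternatives were DESeq2 1.42.0, other scalings and filters, no block, other clusterings, thinned nuclei and leaving out each library.

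The members and lists were chosen with earlier results of these data known. Named genes were the members past the threshold in a contrast (at most 8 highest and 8 lowest in full), the listed subunit genes, members past 1.5-fold between libraries, at most 5 partner genes per contrast by size, and the 5 genes nearest in pattern to Scn1a and to Cacna1i. Values of some members, a nearest gene and sequences are not reported here, while counts over the members include them.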

Additional observations from a re-analysis of the deposited data

Results flagged for a closer look

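The ratio of Cacna2d2 in BTBR over C57BL/6J pointed in opposite directions in different classes, and the difference was not tested. It was 2.45 in Vip-like nuclei (148 and 39 counts), 0.5411 in astrocyte-like nuclei (24 and 27 counts) and 0.5385 in microglia-like nuclei (36 and 47 counts).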

How the results depend on the processing

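Over the 7 class contrasts, 78 of 120 calls of members held in every setting, and of 1418 values 1269 held, 142 lost the threshold and 7 changed direction. Without the library as a block, the lower members were 9 in interneuron-like, 6 in mitral or tufted-like, 4 in layer 2/3-like and 1 in Sst-like nuclei, and the higher members of Sst-like nuclei 4. In precursor-like nuclei the lower members were 4 without TMM factors and 2 under 5% mitochondrial counts, where Cacna1e (0.0087), Cacna1b (0.030) and Cacng3 (0.025) changed direction. With 20 principal components and a resolution of 0.8 the Sst-like class took in Pvalb-like nuclei, no Pvalb-like contrast could be made, 8 members were lower in Sst-like nuclei, and Cacna1g (-0.54), Scn3b (-0.40), Scn1a (0.33) and Scn8a (0.39) changed direction.

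Leaving out each library in turn gave 8 to 9 higher and 10 to 13 lower members in interneuron-like, 13 to 16 and 8 to 9 in medium spiny neuron-like, 6 to 9 and 6 to 11 in mitral or tufted-like, 1 and 3 to 4 in precursor-like, 6 to 7 and 9 to 12 in Pvalb-like, 5 to 6 and 2 to 3 in Sst-like, and 9 to 11 and 4 to 8 in layer 2/3-like nuclei.

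Of the library ratios past 1.5-fold, Nav1 KO over C57BL/6J in excitatory-like nuclei gave 1 lower member (Cacna1a) with nuclei thinned to 1000 counts and 1 with classes weighted equally, an alternative chosen after seeing the data. BTBR over C57BL/6J in excitatory-like nuclei gave 1 higher member (Scn3b) under each of these, and 2 with the members among the variable genes, where Cacna1h took the place of Scn9a. Nav1 KO in interneuron-like nuclei gave 1 higher and 4 lower thinned, 3 lower with 20 principal components, and 1 lower with the members among the variable genes, under 5% mitochondrial counts or with classes weighted equally. BTBR in interneuron-like nuclei gave 1 lower with the members among the variable genes, without the 10% highest doublet scores or under 5% mitochondrial counts, and 0 with 20 principal components. The cause of these shifts was not tested. No paired analysis was possible because each group has 1 library. The C57BL/6J mitral or tufted-like sum rests on 36 nuclei, which limits that class.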
